A study of Homo sapiens with 10 samples.

Results

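The genes described here are 47 human autophagy and lysosome genes, chosen by name for their known function, with earlier results of these data known. Each was read from the probe set that the platform annotation gives that 1 symbol and that had the highest mean log2 signal over the arrays. All 47 were found among the 19775 genes so named, and all 47 were among the 12342 genes bright enough to be tested. The arrays were Affymetrix HG-U133 Plus 2.0 arrays of LoVo cells, a human colorectal adenocarcinoma cell line, and the study asked how asymmetric dimethylarginine (ADMA), an endogenous inhibitor of nitric oxide synthase made from methylated arginine residues of proteins, changed gene expression in cells deprived of serum. Control cells (n = 3) were kept in medium with 10% serum, serum-starved cells (n = 3) in medium without serum, and ADMA-treated cells (n = 4) in medium without serum but with 10 µM ADMA, each for 96 h. Every array came from this 1 cell line, so the results describe one line in dishes, and ADMA was not given to cells that had serum. The labels name the samples biological replicates but not how they were separated, so the p-values measure the spread between these samples.

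Autophagy encloses cytoplasm in a double membrane, the autophagosome, and delivers it to the lysosome, where hydrolases degrade it at acid pH. The ULK kinases start the process, a lipid kinase complex with BECN1 and ATG14 marks the site, ATG9A and ATG2A supply membrane, and the ATG7, ATG5, ATG12 and ATG16L1 conjugation machinery couples ATG8 proteins such as LC3 to the membrane, where cargo receptors such as p62 bind them. Nutrient loss is a classical trigger: the kinase mTORC1 on the lysosome restrains both the ULK kinases and the transcription factors TFEB, TFE3 and MITF, which bind the CLEAR motif, an extended form of the E-box CACGTG, in the promoters of many lysosomal and autophagy genes.

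Because these factors act through a short sequence, promoters from the RefSeq annotation of GRCh38.p14, each reaching from 250 bases before to 50 after a gene's start, were searched for 3 nested forms of the motif. All 3 are palindromes, so both strands read alike and each longer form holds the shorter. Of the 47 genes, 38 matched an entry of that table, with 56 promoters in all. The 6-base CACGTG stood in 10 of the 56 (17.9%) against 7.26% of 35116 promoters, the 8-base TCACGTGA in 5 (8.93%) against 0.98%, and the full 10-base CLEAR palindrome, which adds 1 fixed base on either side, in 2 (3.57%), those of GAA and MCOLN1, against 0.353%. The windows below show 40 bases around 1 such match in each of the 10 genes, with the 6-base or, where present, the 8-base form in capitals and written along the gene's strand, so that the motif can be set beside each gene's measured change.

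ATG14, chr14:55411829-55411868, minus strand: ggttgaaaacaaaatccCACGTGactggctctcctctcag
NEU1, chr6:31862925-31862964, minus strand: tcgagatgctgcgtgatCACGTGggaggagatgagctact
BNIP3, chr10:131982035-131982074, minus strand: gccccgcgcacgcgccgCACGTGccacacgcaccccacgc
CTSA, chr20:45891293-45891332, plus strand: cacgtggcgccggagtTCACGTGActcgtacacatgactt
ATP6V0D1, chr16:67481194-67481233, minus strand: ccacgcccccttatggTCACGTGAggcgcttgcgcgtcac
CD63, chr12:55729167-55729206, minus strand: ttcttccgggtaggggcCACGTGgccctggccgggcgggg
CTSD, chr11:1763952-1763991, minus strand: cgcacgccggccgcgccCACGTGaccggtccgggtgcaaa
GAA, chr17:80101533-80101572, plus strand: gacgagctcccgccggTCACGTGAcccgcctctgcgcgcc
LAMP1, chr13:113297194-113297233, plus strand: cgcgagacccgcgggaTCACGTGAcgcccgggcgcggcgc
MCOLN1, chr19:7522593-7522632, plus strand: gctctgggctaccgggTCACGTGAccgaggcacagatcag

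LAMP1 held 6 copies of CACGTG in its promoter, CTSA, GAA and MCOLN1 held 2 each, and the other 6 genes held 1 each. A match is a description of the letters and not a bound site, and factor binding was not measured.

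The deposited values were MAS 5.0 signals scaled to a trimmed mean of about 500.1 on every array, and log2 of them was used throughout. That scaling did not make the middle of the arrays equal: the median signal of control arrays was 60.7 to 73.1, that of serum-starved arrays 87.5 to 90.7 and that of ADMA-treated arrays 91.9 to 98.1. The mean signal of the 28S ribosomal RNA probe sets was 345 to 429, 1068 to 1653 and 671 to 935 in the 3 groups. The ratio of 3′ to 5′ ACTB signal was 1.01 to 1.08 on control arrays and 1.02 to 1.05 on ADMA-treated arrays, and higher, 1.13 to 1.23, on the serum-starved ones. All 10 colon epithelial markers stood above background on every array, with a summed signal of 92625 to 93046, 130530 to 149386 and 158963 to 181892, while the 7 macrophage, 6 fibroblast and 4 endothelial markers summed to no more than 353, 897 and 367. The epithelial markers did not move alike. Without serum CDH1, KRT8, KRT19, CEACAM5 and LGALS4 were called higher and CDX2 lower (log2 -1.33). EPCAM, KRT18, VIL1 and CDH17 were not called there, by the limits given below. PTPRC, CD14, CD163, MRC1, MARCO and PDGFRB were under background on all arrays, 1 marker of each of these lists (ITGAM, COL1A1 and PECAM1) was above it on all, and COL3A1 was above it on the control arrays and under it on the others. The part of these values in the results below was not tested. A lower level per cell and fewer cells that carry a transcript cannot be told apart in such samples.

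On the deposited scale serum starvation moved most of the autophagy and lysosome genes, and more of them up than down. Between serum-starved and control cells 23 of the 47 rose, 9 fell and 15 were not called (calls were made by limma at adjusted p below 0.01 together with a 1.2-fold difference or more). The 32 called genes are 68.1%, against a background of 57.6% of all genes tested, and the rises are 48.9% against 30.3% called higher. As the genes were chosen with earlier results of these data known, these shares describe the list, and their distance from the background was not tested. The 3 and 3 arrays did not overlap for 38 of the 47 genes, against 71.3% of all genes. Their median log2 difference was 0.29 and that of all genes 0.07.

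With ADMA, autophagy genes such as SQSTM1, MAP1LC3B, ULK1 and WIPI1 fell from their serum-starved level. The rises were those of WIPI2, CTSB, CTSL, CTSZ, HEXA and ATP6V0D1, and none of these was called with centring. Between ADMA-treated and serum-starved cells 6 of the 47 rose, 12 fell and 29 were not called, and the called share of 38.3% stands beside a background of 29.5% (15.7% called higher and 13.8% lower). Groups did not overlap for 30 genes, against 46.1% of all genes, and the median log2 difference was -0.07 beside 0.03 for all genes. The 6 rises became 3 without serum-starved array 1, without serum-starved array 2 or without ADMA array 4, since CTSB, CTSZ and HEXA were no longer called in each of these. By the SAM statistic that the study's methods name, 5 of the 47 were called and all 5 fell. The share of all genes called by SAM was not worked out, so this count has no background beside it.

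In ADMA-treated against control cells rises again outnumbered falls: 23 of the 47 rose, 6 fell and 18 were not called, or 61.7% called against a background of 49.8% (26.6% called higher). Groups did not overlap for 34 genes, against 61.9% of all genes, and the median was 0.25 beside 0.07. The 6 falls became 3 without control array 2. These 3 comparisons share arrays, so their counts are not independent of each other.

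How many genes rose depends on what is taken as the level of an unchanged array. An alternative level is the median of all 54675 probe sets of an array, which include those too dim to be tested. Beside the median signals given above, background was 35.0 to 70.2 on control, 41.4 to 57.3 on serum-starved and 56.3 to 67.3 on ADMA-treated arrays. Centring thus lines the arrays up on dim signal, and which scaling is nearer the truth was not tested. Centring each array on its median lowered every log2 difference by 0.39 for serum starvation against control, by 0.12 for ADMA against serum starvation and by 0.51 for ADMA against control. The split of rises and falls among the 47 genes then became 13 and 15, 0 and 14, and 5 and 20 in these comparisons, in that order. Over all genes tested the shares called higher and lower with centring were 16.3% and 42%, 7.31% and 17%, and 9.8% and 49.4%. The median over the 47 genes turned to -0.10 and -0.26 for serum starvation and for ADMA against control. The median over all genes tested moved too, to -0.32 and -0.44, so that of the 47 genes stayed the higher in both. Rises over control under both scalings belonged to ULK1, ULK2, ATG14, ATG2A, WIPI1, ATG16L1, MAP1LC3B, SQSTM1, OPTN, LAMP2, NPC1, TPP1 and NEU1 in serum-starved cells, and to ATG14, OPTN, LAMP2, NPC1 and NEU1 in ADMA-treated cells. All falls of the 47 genes in the 3 comparisons were called under both. Centring added falls against control of ATG13, MITF and LAMP1 without serum and with ADMA, of CD63, MCOLN1 and CTSL without serum, and of ATG9A, WIPI1, WIPI2, ATG5, ATG12, GABARAP, BNIP3L, CTSD, HEXA, ATP6V0D1 and ATP6V1B2 with ADMA. Between ADMA-treated and serum-starved cells it added those of TPP1 and NEU1. Quantile normalization between arrays changed fewer calls of the 47 genes. It kept 31 and lost 1, kept 17 and lost 1, and kept 27 and lost 2 in the 3 comparisons, and added 5 in the first. Calls given below are those of the values as deposited, unless centring is named.

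**Figure D1:**
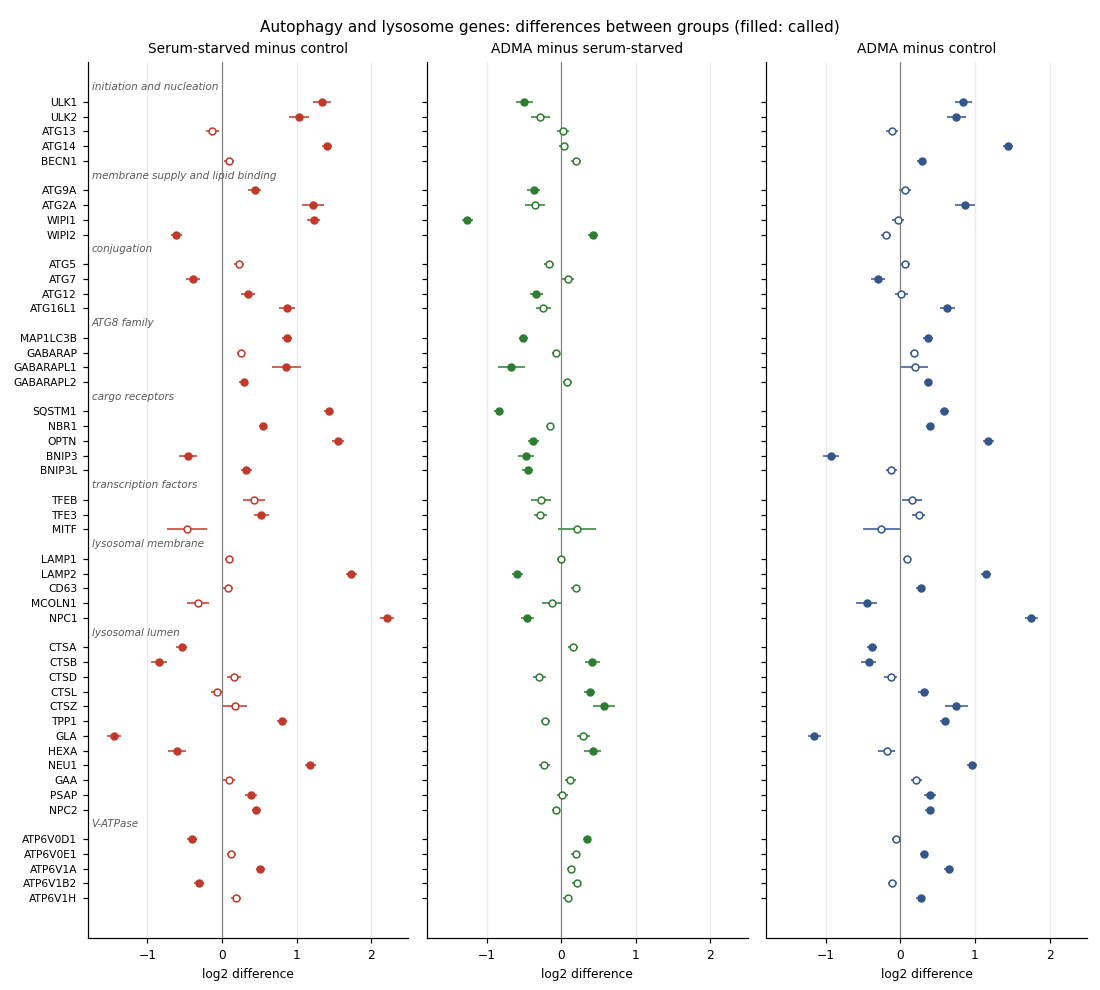
Log2 difference in signal (x axis) of each of the 47 genes (y axis, grouped by role), for serum-starved minus control, ADMA minus serum-starved and ADMA minus control cells. Points are limma estimates with their standard errors, and filled points were called: in the first panel 23 filled points lie right of 0 and 9 left of it, in the second 6 and 12.

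Among the genes that start autophagy, ULK1 and ULK2, the kinases of the initiation complex, and ATG14, the subunit that directs the lipid kinase complex to autophagy, rose without serum. ULK1 had log2 signals of 7.85, 7.94 and 7.75 in control cells, 9.11, 9.30 and 9.15 in serum-starved cells and 8.61, 8.80, 8.83 and 8.52 in ADMA-treated cells. The 3 groups of ULK1 did not overlap, with ADMA-treated cells between the others. The difference was 1.34 (SE 0.12, adjusted p = 1.94e-07 by limma) for serum starvation, a 2.53-fold rise, and -0.50 (SE 0.12, adjusted p = 0.00315) for ADMA against serum starvation, a fall that was not called without serum-starved array 2 or ADMA array 4. ATG14 behaved otherwise, as its ADMA-treated arrays lay level with the serum-starved ones. Its log2 signals were 9.55, 9.42 and 9.48 in control cells, 10.91, 10.90 and 10.87 in serum-starved cells and 11.00, 10.89, 10.83 and 10.97 with ADMA. ATG14 thus rose 2.65-fold without serum (log2 1.41, SE 0.07) and 2.71-fold with ADMA against control, and the ADMA-treated and serum-starved arrays differed by 0.03, which was not called. ULK2 rose by 1.03 and differed by -0.28 with ADMA, a difference that was not called. BECN1, the scaffold of the lipid kinase complex, was not called without serum (0.09), and it rose by 0.28 in ADMA-treated over control cells. That call was lost with centring (-0.22), and the other tested BECN1 probe set stood at -0.10 there, not called. On the probe set used, ATG13, the partner that ties ULK1 into its complex, was called in none of the comparisons, at -0.13, 0.02 and -0.11. With centring it was called at -0.52 without serum and -0.62 with ADMA against control. Another ATG13 probe set, almost as bright, was called higher without serum, by 0.46, and a further one stood at -0.09, not called. The direction of ATG13 is thus uncertain.

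The membrane suppliers and lipid-binding proteins held the member with the largest fall under ADMA, WIPI1, which binds the lipid mark left by the ATG14 complex. WIPI1 gave 9.003, 8.99 and 9.07 in control cells, 10.29, 10.28 and 10.18 without serum and 9.03, 8.97, 8.93 and 9.04 with ADMA. The serum-starved arrays stood alone and the ADMA-treated and control arrays overlapped. Its rise without serum was 1.23 (SE 0.08) and its fall with ADMA -1.26 (SE 0.08, limma adjusted p = 3.89e-08), a 2.39-fold lower signal, while ADMA-treated and control cells differed by -0.03. WIPI2, the relative that recruits ATG16L1, had the opposite order, with 12.16, 12.06 and 12.15 in control cells, 11.51, 11.45 and 11.57 without serum and 11.83, 11.90, 11.90 and 12.10 with ADMA. It fell by 0.61 (SE 0.07) without serum and rose by 0.42 (SE 0.07) with ADMA. Without serum the next brightest WIPI2 probe set also fell, by 0.28, while a dimmer one rose by 0.81 and a further one, at -0.07, was not called. The direction of the gene is therefore uncertain. The rise with ADMA was called for the probe set used alone. ATG2A, which moves lipid into the growing membrane, rose by 1.22 without serum, and ATG9A, which seeds it, rose by 0.44 and fell with ADMA by 0.37. The ATG9A rise was lost when arrays were centred.

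In the conjugation machinery ATG16L1, the subunit that places the ligase on the membrane, rose, and the probe set used for ATG7, the activating enzyme, fell. ATG16L1 read 8.83, 9.11 and 8.73 in control cells, 9.67, 9.79 and 9.82 without serum and 9.46, 9.46, 9.51 and 9.64 with ADMA. Its arrays with serum lay under all arrays without it, and the difference of 0.87 (SE 0.11) for serum starvation was beside -0.24 for ADMA against serum starvation, which was not called. ATG12, the ubiquitin-like protein of that ligase, read 10.57, 10.63 and 10.75, then 10.89, 11.13 and 10.97, then 10.73, 10.83, 10.65 and 10.45 in the same order of groups. It rose by 0.35 (SE 0.10) and fell with ADMA by 0.33 (SE 0.09), close to the threshold, and its rise was not called without control array 1 or 2 or serum-starved array 2 or 3, nor with centring, where its difference was -0.04. Its fall was lost when any one of 7 arrays was left out, control arrays 1 and 2, serum-starved arrays 2 and 3 and ADMA arrays 1, 3 and 4. Other tested ATG12 probe sets stood at -0.16 and 0.37 without serum and at -0.05 and -0.31 with ADMA against serum starvation, none called. ATG7 fell by 0.39 without serum, a call lost without control array 1 or serum-starved array 1, and of its other probe sets one fell by 0.73 and one stood at 0.51. The latter missed the call among all probe sets but was called as the value of the gene when probe sets that can match several genes were left out, so the direction of ATG7 is uncertain too. ATG5, the other subunit of the ligase, differed by 0.23, under the 1.2-fold limit. Another ATG5 probe set was called higher without serum, by 0.28, and a further one, at 0.19, was not called.

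The ATG8 proteins sit on the autophagosome membrane and bind the cargo receptors. Of these 4 genes 3 rose without serum, beside 30.3% of all genes called higher. MAP1LC3B, which encodes LC3B, gave 11.69, 11.67 and 11.87 in control cells, 12.58, 12.65 and 12.62 in serum-starved cells and 12.08, 12.17, 12.00 and 12.18 in ADMA-treated cells. The groups did not overlap and the ADMA-treated arrays lay between the others. MAP1LC3B rose by 0.87 (SE 0.07, limma adjusted p = 3.11e-08) without serum and fell by 0.51 (SE 0.06, adjusted p = 2.22e-05) with ADMA. Against control cells it was 0.37 higher with ADMA, which became -0.14, not called, with centring. GABARAPL1 was dimmer and more variable, with 7.35, 6.99 and 6.97 in control cells, 8.15, 8.04 and 7.70 without serum and 7.29, 7.10, 7.42 and 7.37 with ADMA. It rose by 0.86 (SE 0.20) and fell with ADMA by 0.67 (SE 0.18), and its ADMA-treated and control arrays overlapped. That fall was not called without control array 2, serum-starved array 1 or 2, or any one of the ADMA-treated arrays. GABARAPL2 rose by 0.29, and GABARAP, at 0.25, passed the adjusted p but not the fold. The rises of GABARAPL1 and GABARAPL2 were lost with centring, and that of GABARAPL2 also without control array 3. MAP1LC3B and GABARAPL1 have close copies elsewhere in the genome, and whether their probes tell these apart was not tested.

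Of the 5 cargo receptors, 4 rose and 1 fell when serum was withdrawn, beside 57.6% of all genes called. SQSTM1 encodes p62, which carries ubiquitinated proteins to the autophagosome and is itself degraded there. Its log2 signals were 12.09, 12.00 and 11.93 in control cells, 13.42, 13.38 and 13.50 without serum and 12.66, 12.66, 12.55 and 12.52 with ADMA. The 3 groups were well apart, and ADMA-treated cells stood between the others. SQSTM1 rose 2.69-fold without serum (log2 1.43, SE 0.06, limma adjusted p = 7.71e-11). With ADMA the signal of the probe set used was 1.79-fold lower than without it (log2 -0.84, SE 0.06, limma adjusted p = 9.21e-08). All tested SQSTM1 probe sets rose without serum. With ADMA another fell by 0.71, while those at -0.30, -0.12 and 0.04 were not called. The fall was also not called when probe sets that can match several genes were left out. Against control cells SQSTM1 was 0.59 higher with ADMA, which became 0.08, not called, with centring.

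OPTN, a receptor for ubiquitinated mitochondria and bacteria, read 10.02, 10.14 and 9.84 in control cells, 11.59, 11.53 and 11.53 without serum and 11.15, 11.26, 11.12 and 11.19 with ADMA. Its rise of 1.55 (SE 0.08), 2.94-fold, was the next largest of the 47 after those of NPC1 and LAMP2, and it fell by 0.37 (SE 0.07) with ADMA. NBR1, a p62 relative, rose by 0.55 and differed by -0.15 with ADMA. The mitochondrial receptor BNIP3, a known hypoxia-inducible gene, went down instead, with 11.60, 12.00 and 11.99 in control cells, 11.59, 11.32 and 11.31 without serum and 10.89, 11.09, 10.74 and 11.01 with ADMA. BNIP3 fell by 0.46 (SE 0.12) without serum and by a further 0.48 (SE 0.11) with ADMA, so that ADMA-treated cells were 0.93 below control cells. Its first fall was not called without control array 2 or 3 or without serum-starved array 2 or 3, and its second not without serum-starved array 1. BNIP3L, its homologue, rose by 0.33, a call lost without control array 1 or serum-starved array 2, and fell with ADMA by 0.45. NBR1 and BNIP3L lost their rises with centring.

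**Figure D2:**
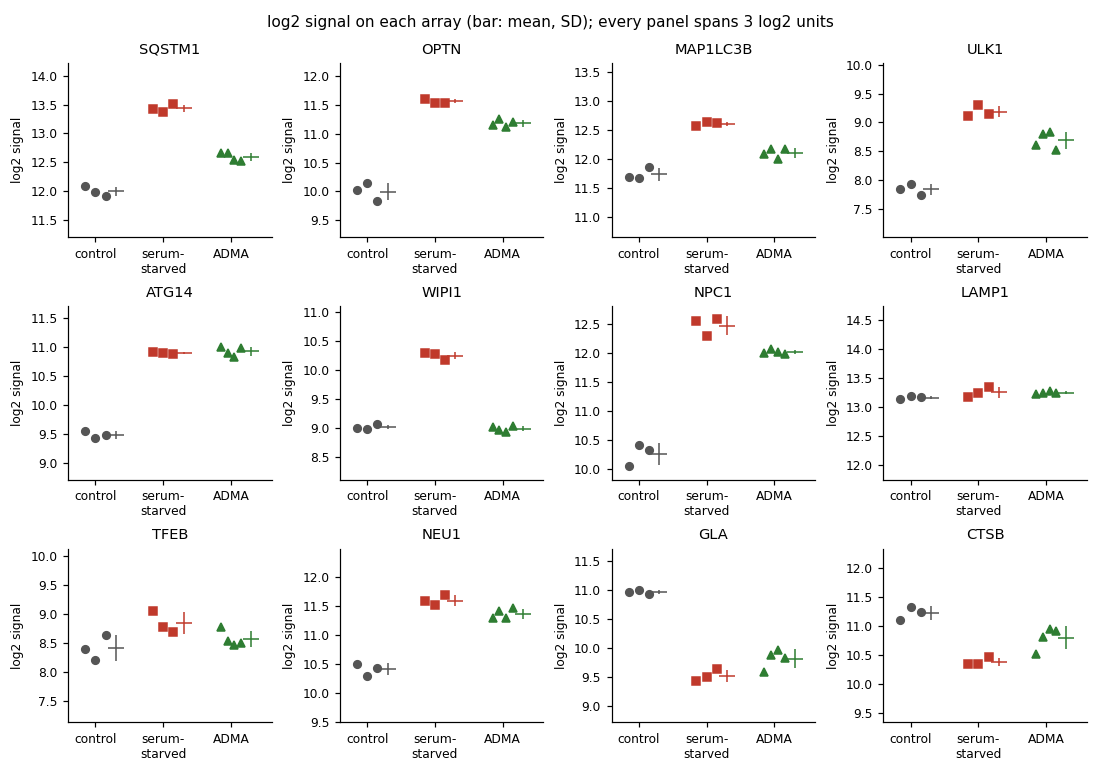
Log2 MAS 5.0 signal (y axis, 3 units in every panel) of 12 of the genes on each array, for control (circles, n = 3), serum-starved (squares, n = 3) and ADMA-treated cells (triangles, n = 4), with a bar at each group's mean and its SD. SQSTM1 and MAP1LC3B show 3 separate groups, WIPI1 shows serum-starved arrays above overlapping control and ADMA-treated ones, ATG14 shows no gap between serum-starved and ADMA-treated arrays, and LAMP1 stays between 13.14 and 13.35.

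The transcription factors of this programme are controlled largely by their place in the cell, which an array does not read. Of their 3 transcripts 1 was called without serum, beside 57.6% of all genes. TFEB had signals of 8.40, 8.20 and 8.64 in control cells, 9.06, 8.77 and 8.69 without serum and 8.77, 8.54, 8.46 and 8.49 with ADMA. Every serum-starved array lay above every control array, but the difference of 0.43 (SE 0.15, limma adjusted p = 0.0172) did not pass, and that of -0.28 for ADMA did not either. TFE3 read 9.91, 9.93 and 9.82, then 10.52, 10.21 and 10.52, then 10.14, 9.99, 10.22 and 10.18. It rose by 0.53 (SE 0.09) without serum, a call lost with centring, and differed by -0.28 with ADMA. MITF was dim and variable, with the highest SD of the 47 genes in ADMA-treated cells (0.49), and was called in none of the comparisons as deposited. With centring it was called at -0.86 without serum and -0.76 with ADMA against control.

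On the lysosomal membrane large and small differences stood side by side. NPC1, which exports cholesterol from the lysosome, had the largest rise of the 47 genes without serum. It gave 10.04, 10.41 and 10.32 in control cells, 12.54, 12.28 and 12.57 without serum and 12.00, 12.07, 12.01 and 11.97 with ADMA. The difference was 2.21 (SE 0.09, limma adjusted p = 5.61e-11), or 4.62-fold, for serum starvation and -0.46 (SE 0.09) for ADMA against it, and ADMA-treated cells remained 3.37-fold above control cells. LAMP1, the abundant glycoprotein of that membrane, read 13.14, 13.18 and 13.16 in control cells, 13.17, 13.23 and 13.35 without serum and 13.23, 13.24, 13.27 and 13.24 with ADMA. Its differences of 0.09, 0.00 and 0.09 were not called as deposited, and with centring it was 0.30 and 0.42 below control cells, both called. CD63, a tetraspanin of late endosomes, rose by 0.27 in ADMA-treated over control cells, a call lost without control array 2 or ADMA array 4 and with centring. MCOLN1, the calcium channel of the lysosome, read 8.99, 8.92 and 8.76, then 8.40, 8.48 and 8.81, then 8.23, 8.66, 8.52 and 8.34 in the same order of groups. It fell by 0.45 (SE 0.14) in ADMA-treated against control cells, close to the threshold, and the call was lost without any one of the control arrays, serum-starved array 2 or ADMA array 1, 3 or 4. The serum-starved arrays overlapped the control arrays.

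LAMP2, the second LAMP glycoprotein, rose strongly, and its probe sets did not move alike. The probe set used read 9.80, 9.80 and 9.90 in control cells, 11.55, 11.58 and 11.59 without serum and 10.92, 11.16, 10.96 and 10.89 with ADMA. It rose 3.33-fold without serum (log2 1.74, SE 0.08) and fell by 0.59 (SE 0.07) with ADMA. LAMP2 is spliced into variants that differ in the last exon, and variant A encodes the receptor of chaperone-mediated autophagy, which takes single proteins across the lysosomal membrane. The probe set designed on the variant A record read 9.05, 9.02 and 8.91, then 11.01, 10.79 and 10.73, then 10.02, 9.95, 9.80 and 9.86. The one designed on the variant B record read 11.02, 10.92 and 11.11, then 11.04, 11.12 and 10.91, then 10.62, 10.39, 10.32 and 10.53. The first of these probe sets was 1.85 higher without serum, while the second differed by 0.01 and was 0.56 lower with ADMA. The last probe set of the gene, not tied to either variant here, was 2.03 higher without serum and 0.46 lower with ADMA.

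Within each array, the log2 signal of the variant A probe set minus that of variant B was -2.02 ± 0.15 (SD, n = 3) in control cells, -0.18 ± 0.15 (SD, n = 3) without serum and -0.56 ± 0.10 (SD, n = 4) with ADMA. The shifts were 1.84 between serum-starved and control cells, -0.38 for ADMA against serum starvation and 1.47 for ADMA against control. This within-array difference is unchanged when an array is multiplied by a factor or centred. It shows unequal change of the probe sets and not which variant changed. The pair of probe sets was chosen after the values had been seen, so a test on the same arrays cannot count as support and none is given.

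**Figure D3:**
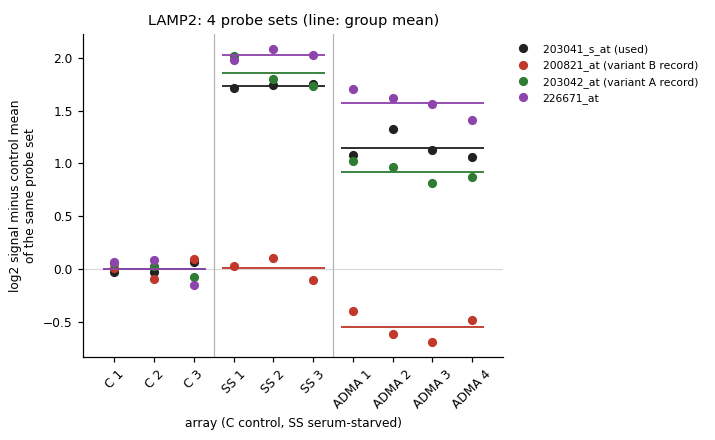
Log2 signal of the 4 LAMP2 probe sets on each array (x axis), each minus its own mean over the control arrays (y axis), with a line at each group mean. The variant A probe set stands 1.85 above control without serum and the variant B probe set 0.01 above it, and both are lower with ADMA.

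Of the 12 genes of the lysosomal lumen, 4 rose and 4 fell without serum, shares of 33.3% each that lie near the 30.3% and 27.3% of all genes. With ADMA against serum starvation 4 rose and the other 8 were not called, beside 15.7% of all genes called higher and 13.8% lower. NEU1, the lysosomal sialidase, read 10.50, 10.29 and 10.42 in control cells, 11.58, 11.50 and 11.68 without serum and 11.29, 11.42, 11.29 and 11.46 with ADMA. It rose 2.27-fold (log2 1.19, SE 0.08, limma adjusted p = 3.72e-09) and stayed 1.94-fold above control with ADMA. CTSA, the carboxypeptidase that binds and stabilises NEU1, moved the other way, with 11.58, 11.62 and 11.55, then 10.95, 11.04 and 11.14, then 11.10, 11.12, 11.28 and 11.31. CTSA fell by 0.54 (SE 0.07) without serum and was 0.38 (SE 0.07) under control with ADMA. The whole promoters of these partners are given below with the motif in capitals. That of NEU1 holds 1 CACGTG, and that of CTSA holds 2, the later of them within the 8-base TCACGTGA. Whether the motif bears on either change was not tested.

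NEU1, chr6:31862772-31863071, minus strand: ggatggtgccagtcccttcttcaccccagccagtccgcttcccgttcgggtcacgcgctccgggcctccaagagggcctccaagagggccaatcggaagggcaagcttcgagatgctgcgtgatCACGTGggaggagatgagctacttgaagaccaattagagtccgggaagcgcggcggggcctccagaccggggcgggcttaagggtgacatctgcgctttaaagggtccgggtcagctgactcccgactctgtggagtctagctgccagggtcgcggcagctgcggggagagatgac
CTSA, chr20:45891085-45891384, plus strand: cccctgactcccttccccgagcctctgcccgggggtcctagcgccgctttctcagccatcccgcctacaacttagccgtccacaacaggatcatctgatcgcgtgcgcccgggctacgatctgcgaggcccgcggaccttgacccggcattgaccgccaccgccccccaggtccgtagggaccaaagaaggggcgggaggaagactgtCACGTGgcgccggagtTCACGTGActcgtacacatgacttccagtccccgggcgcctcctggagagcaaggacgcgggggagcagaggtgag

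Of the 10 genes with CACGTG, ATG14 and NEU1 rose without serum, BNIP3, CTSA and ATP6V0D1 fell, and LAMP1, CD63, MCOLN1, CTSD and GAA were not called. Of the other 28 genes with a promoter, 17 rose, 3 fell and 8 were not called, where 30.3% of all genes were called higher and 27.3% lower. Whether genes with and without the motif differ was not tested. The 9 genes with no entry are ATP6V0E1, ATP6V1A, ATP6V1B2, ATP6V1H, BNIP3L, CTSB, HEXA, LAMP2 and PSAP.

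GLA, the alpha-galactosidase lost in Fabry disease, had the largest fall of the 47 genes. It gave 10.97, 11.01 and 10.94 in control cells, 9.44, 9.50 and 9.64 without serum and 9.60, 9.89, 9.97 and 9.83 with ADMA. The fall was 1.45 on the log2 scale (SE 0.10, limma adjusted p = 4.91e-09), a 2.73-fold lower signal, and the difference of 0.30 with ADMA was not called. CTSB, a cysteine protease, read 11.11, 11.34 and 11.24, then 10.36, 10.34 and 10.46, then 10.52, 10.82, 10.95 and 10.93. It fell by 0.84 (SE 0.10) without serum and rose by 0.42 (SE 0.10) with ADMA, but its second-brightest probe set, which fell by 0.94 without serum, differed by -0.03 with ADMA. In ADMA-treated cells CTSB was 0.43 under control, a call lost without control array 2. HEXA, a subunit of beta-hexosaminidase, read 11.37, 11.62 and 11.47, then 10.90, 10.77 and 10.96, then 11.09, 11.62, 11.11 and 11.36. Its fall of 0.61 (SE 0.12) and its rise of 0.42 (SE 0.11) with ADMA are those of 1 probe set. Both other tested probe sets of HEXA, which were dimmer, rose without serum, by 1.90 and 3.36, the latter under background on 3 arrays. The direction of HEXA is uncertain. The rise with ADMA was also not called without serum-starved array 3 or ADMA array 2.

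CTSL and CTSZ, cysteine cathepsins, were not called without serum (-0.07 and 0.17) and rose with ADMA. CTSL gave 11.47, 11.51 and 11.22 in control cells, 11.35, 11.29 and 11.34 without serum and 11.76, 11.69, 11.67 and 11.70 with ADMA, so its ADMA-treated arrays lay above all others. It rose by 0.38 (SE 0.07) with ADMA against serum starvation and by 0.31 against control, the latter not called without control array 3, and CTSZ rose by 0.58 (SE 0.15) and 0.75. The first rise of CTSZ was also not called without control array 3 or ADMA array 3. CTSZ read 9.52, 9.76 and 9.63, then 9.50, 9.85 and 10.07, then 10.17, 10.14, 10.80 and 10.42. None of these 4 rises of CTSL and CTSZ was called with centring, where CTSL was called lower without serum (-0.46). TPP1, a peptidase, rose by 0.81 without serum, PSAP, the precursor of the saposins, by 0.38 and NPC2, which hands cholesterol to NPC1, by 0.46, and none of the 3 was called for ADMA against serum starvation. The rises of PSAP and NPC2 were lost with centring, where TPP1 was called lower with ADMA than without it (-0.33), as was NEU1 (-0.34). CTSD, an aspartic protease, and GAA, the acid alpha-glucosidase, were called in none of the comparisons as deposited, and with centring CTSD was called at -0.64 in ADMA-treated against control cells.

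The V-ATPase, the proton pump that acidifies the lysosome, had members that rose and members that fell. ATP6V1A, its catalytic subunit, read 11.10, 11.24 and 11.17 in control cells, 11.62, 11.67 and 11.76 without serum and 11.77, 11.81, 11.85 and 11.83 with ADMA. It rose by 0.51 (SE 0.06) without serum and stood 0.65 above control with ADMA, calls that centring removed. ATP6V0D1, of the membrane sector, read 12.36, 12.39 and 12.37, then 11.86, 11.96 and 12.10, then 12.27, 12.33, 12.31 and 12.36. It fell by 0.40 (SE 0.06) without serum and rose by 0.35 (SE 0.06) with ADMA, and ADMA-treated and control cells differed by -0.06, which was not called. With centring that rise was lost and the last difference was called, at -0.56. ATP6V1B2 fell by 0.31 without serum. ATP6V0E1 and ATP6V1H were not called there, and they were 0.32 and 0.27 above control with ADMA, calls that centring also removed, and that of ATP6V1H was lost without control array 3 or ADMA array 1.

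The wider pathway was called in shares nearer the background. Of 136 other autophagy and lysosome genes listed by function, 122 were tested. Without serum 50 rose and 28 fell (63.9% called, beside 57.6% of all genes). With ADMA against serum starvation 15 rose and 17 fell (26.2% beside 29.5%). With ADMA against control 43 rose and 27 fell (57.4% beside 49.8%). VMP1, which remodels the membrane that gives rise to autophagosomes, was under background on the control arrays and at least 4.45-fold higher without serum and at least 3.80-fold higher with ADMA. CTSS, a cathepsin, rose by 2.12 (SE 0.16) without serum and fell by 1.17 (SE 0.15) with ADMA, CTSC fell by 1.74 (SE 0.12) and was 1.24 under control with ADMA, and TMEM192 fell by 1.62 (SE 0.39) without serum. ATG2B, the relative of ATG2A, PLEKHM1, which tethers the autophagosome to the lysosome, and CTSK were 1.52, 1.38 and 1.31 above control in ADMA-treated cells. IDS, a sulfatase, and LAMP3 fell with ADMA by 1.17 (SE 0.07) and 1.01 (SE 0.08). Among the genes by which mTORC1 is controlled, AKT1S1, a brake on the kinase, fell by 1.66 (SE 0.21) without serum, FNIP1 fell by 0.73 (SE 0.12) with ADMA, and DEPTOR, another brake, rose by 1.57 (SE 0.15) with ADMA.

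**Figure D4:**
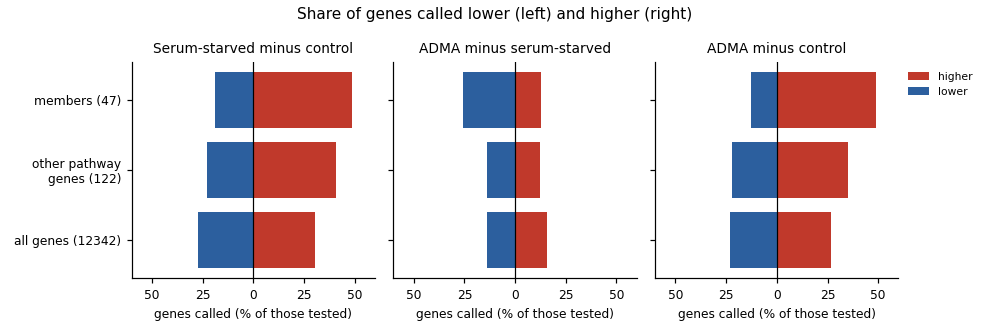
Share of genes called higher (right of 0) and lower (left of 0), in % of those tested, for the 47 genes, the 122 other pathway genes and all 12342 genes, in each comparison. For serum starvation 48.9% of the 47 were called higher and 19.1% lower, against 30.3% and 27.3% of all genes.

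The agreement of probe sets limits what a gene's value stands for. The 47 genes had 115 probe sets, 103 of them bright enough to be tested, and 29 genes had more than 1. All tested probe sets of a gene were called one way for 11 of these 29 without serum, 6 with ADMA against serum starvation and 9 with ADMA against control, beside 28.6%, 8.15% and 22.1% of the 6161 genes on the arrays with more than 1 tested probe set. Probe sets were called in both directions for HEXA and WIPI2 without serum, for no gene with ADMA against serum starvation, and for ATG7, ATP6V0E1 and LAMP2 with ADMA against control.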

How the data were processed

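Total RNA of LoVo cells was hybridised to HG-U133 Plus 2.0 arrays, 3 of control, 3 of serum-starved and 4 of ADMA-treated cells. MAS 5.0 was the authors' software, and the deposited values are linear intensities, 1 for each probe set. Log2 was taken with no pseudocount and no further normalization. Of 54675 probe sets, 41091 carry 1 symbol, and genes were tested where their brightest probe set had a mean log2 signal of at least 6.25, the median of all probe sets. Background was the 95th percentile of 27 Bacillus control probe sets on each array, and the 47 genes lay at least 0.60 log2 units above it on every array.

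For tests, 1 linear model of the 3 groups was fitted to the 10 arrays in limma 3.58.1 (R 4.3.3), with lmFit, eBayes and a variance trend on intensity. P-values were adjusted by Benjamini-Hochberg over 12342 genes, with the thresholds of the study's own SAM analysis. The steps were tested on simulated data. Members and gene lists were chosen with earlier results of these data known. Array values and errors were given by rule for members among the 5 largest called rises or falls of a comparison, for the largest difference in each of 9 role groups, and for SQSTM1, MAP1LC3B, LAMP1 and TFEB. Of the 136 other genes, 126 had a probe set in the annotation used, and the rest are not analysed here. Alternatives were other scalings, filters, variance models, thresholds and probe sets, SAM, a pseudocount of 16, a replicate block and each array left out. Figures used Python 3.11.15 and matplotlib 3.10.9. The number of arrays limits the precision.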

Additional observations from a re-analysis of the deposited data

Results flagged for a closer look

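In 47 genes the 4 ADMA-treated arrays were searched for an array apart from the rest, and 1 gene had one. NPC2 read 13.30 on ADMA array 4 against 13.22 on the nearest of the others and 13.21 on the farthest, so the gap was 0.851 of the range. A group of 4 passes this limit by chance about 1 time in 20. The gap is small on the log2 scale, and no call of NPC2 rests on it.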

How the results depend on the processing

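The fit, the scaling and the choice of probe set decided how many of the 47 genes were called, and the results are limited by 3 or 4 arrays a group and by values that the deposited scaling leaves with unequal medians. The causes were not tested, except that stricter limits and fewer genes give fewer calls by construction. Centring each array on its median gave, for serum starvation against control, 13 rises, 15 falls and a median of -0.10. For ADMA against serum starvation it gave 0 rises (limma) and a median of -0.19, and for ADMA against control 5 rises, 20 falls and a median of -0.26. The centred medians over all genes tested were -0.32, -0.09 and -0.44 in the 3 comparisons. With centring ATG12 and LAMP1 turned to -0.043 and -0.30 in serum-starved against control cells, and ATG12, CTSL, LAMP1 and MAP1LC3B to -0.49, -0.20, -0.42 and -0.14 in ADMA-treated against control cells. Quantile normalization moved the medians of the first 2 comparisons to 0.36 and -0.14, beside -0.05 and 0.003 for all genes tested. The SAM statistic called 16 genes (14 rises, 2 falls), 5 (0 rises, 5 falls) and 12 (10 rises, 2 falls) in the 3 comparisons, and 37, 12 and 35 of the other pathway genes. A limit of 1.5-fold left 18 (14 rises, 4 falls), 4 (0 rises, 4 falls) and 15 (13 rises, 2 falls), with 10 and 34 other pathway genes in the comparisons of ADMA with serum starvation and with control. An adjusted p under 0.05 with no fold gave 30 calls (11 rises, 19 falls) and 54 other genes for ADMA against serum starvation, where the fit with no intensity trend gave 3 rises and the 75th percentile filter a median of -0.0018. Shares of all genes were worked out only for the values as deposited, quantile normalization and centring. Counts under the other settings therefore have no background of their own.

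Averaging the probe sets of a gene left 11 calls, 2 rises and 19 other genes for ADMA against serum starvation, and leaving out probe sets that can match several genes left 10 calls, 1 rise and a median of -0.24 there. Without those probe sets the median was 0.43 and 48 other genes were called for serum starvation, and 18 genes, 13 rises and a median of 0.18 stood in that of ADMA with control. HEXA then turned to 1.90 without serum and 2.17 with ADMA against control (1.25 and 1.44 with averaging), WIPI2 to 0.81 (0.027 with averaging), -0.24 and 0.57 in the 3 comparisons, ATG7 to 0.51 and 0.66 in serum-starved and in ADMA-treated against control cells, CTSB to -0.027 with ADMA against serum starvation and LAMP2 to -0.55 with ADMA against control. With each array left out in turn, the median ranged from 0.23 to 0.32 in the first comparison and from -0.11 to -0.010 in the second, the rises of the second from 3 to 7 and the falls of ADMA against control from 3 to 6. Replicate numbers did not pair the samples, since deviations of same-numbered arrays correlated at -0.07 to 0.10 over 9 pairs and those of others at -0.11 to 0.14 over 24. With the replicate block 32, 13 and 26 genes were called.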

Other observations

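Among genes of mTORC1 and its regulators 19 were tested, of which 8 rose and 5 fell in serum-starved against control cells. In ADMA-treated cells 3 rose and 4 fell against serum-starved cells, and 4 rose and 4 fell against control cells. The called shares were 68.4%, 36.8% and 42.1%, beside 57.6%, 29.5% and 49.8% of all genes. DEPTOR, which binds and inhibits the kinase, read 7.82, 7.43 and 7.90 in control cells, 7.01, 7.15 and 6.97 in serum-starved cells and 8.70, 8.52, 8.62 and 8.63 in ADMA-treated cells. The 3 groups did not overlap, with the serum-starved arrays lowest and the ADMA-treated arrays highest, and its limma differences were -0.67 (SE 0.16) without serum and 1.57 (SE 0.15) with ADMA. AKT1S1, the other inhibitor of the complex, read 9.87, 9.83 and 9.66, then 7.81, 8.02 and 8.54, then 8.59, 8.35, 9.25 and 8.84, and its difference of 0.63 (SE 0.20) with ADMA was not called.

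Genes that sort enzymes to the lysosome were called in 7 of 10 cases without serum, with 4 rises and 3 falls, beside 57.6% of all genes. Of the 13 further V-ATPase genes tested, 7 rose and 2 fell without serum, and of 25 further hydrolases and activators 8 rose and 11 fell. Beside these, 30.3% of all genes were called higher and 27.3% lower.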
